A study of Homo sapiens with 6 samples.

Results

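The genes of the cytosolic and mitochondrial chaperones were followed in NALM6, an established cell line from a B-cell precursor acute lymphoblastic leukemia. A list of 50 gene symbols was used, made up of the HSP70, HSP90, HSP40 (DNAJ), BAG and small heat shock families, their cochaperones, the chaperones of the mitochondrial matrix, the cytosolic chaperonin TRiC and the heat shock factor genes HSF1 and HSF2. Of these, 48 were listed in the FPKM table and all 48 passed the minimum for testing, out of 13494 genes with a value and 12952 tested. BAG3, a stress-inducible cochaperone of HSP70, and HSPA4L, an HSP110 relative, had no row. The members were split by role into 11 stress-inducible, 24 constitutive, 5 mitochondrial and 8 TRiC genes and the 2 heat shock factor genes.

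Treatment lasted 48 h, with verteporfin or, as the control, with the solvent DMSO, and RNA was sequenced in 3 libraries of each group. Verteporfin is a porphyrin used as a light-activated drug and known to block the contact of YAP with TEAD factors. Its labelled concentration was 0.6 mmol/L, printed as given. That is an unusually high level for cultured cells, and another unit may have been meant. Both groups are the same cell line in the same medium, and no genetic change is labelled. The labels do not say that the libraries of a group came from separate cultures, so the p-values rest on a spread between libraries that may be only technical. The unit is FPKM, in which fragments are divided by the length of the transcript and by the size of the library, and the values were summed over the transcripts of a gene. They are given for libraries 1, 2 and 3 of a group in that order, and each log2 fold change sets verteporfin over DMSO on the scale of log2 of FPKM + 1, a scale that understates differences of low genes.

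Chaperones bind unfolded proteins and keep them from clumping. HSP70 proteins work in cycles of ATP set by DNAJ partners, which deliver the client, and by BAG proteins and HSP110 proteins, which help it leave. HSP90 takes over clients such as kinases with the help of cochaperones, TRiC is a ring-shaped chamber that folds actin and tubulin, and HSP60 with its lid HSP10 does a like task in the mitochondrial matrix. When unfolded proteins build up, HSF1 forms trimers that bind heat shock elements, repeats of GAA in alternating orientation, before the start of its target genes.

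No chaperone gene passed the test. By limma with Benjamini-Hochberg adjustment over all genes, 0 of 48 members had an adjusted p under 0.05, against a background of 0.0154% of genes tested, which is 2 genes, neither of them a chaperone. At an unadjusted p under 0.05 there were 7 members, or 14.6%, beside 8.84% of all genes tested. Of these, 5 had higher values in verteporfin (HSPA6, HSPA1B, HSPA1A, DNAJB4 and DNAJB2) and 2 had lower values (BAG1 and AHSA1), where 4.36% of all genes were higher and 4.48% lower at that p. The 6 libraries fell into groups that do not overlap for 3 members with higher values (HSPA6, HSPA1B and DNAJB4) and 3 with lower values (AHSA1, TRAP1 and HSF1). That is 12.5% of the members, beside 14.2% of all genes, of which 6.49% were higher and 7.74% lower. The median log2 fold change was -0.11 over the members, with 19 above 0 and 29 below, and 0.0074 over all genes, of which 50.7% were above 0.

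The class medians differed, and several turned sign with 1 library or with how a class was drawn. The median log2 fold change was 0.44 over the 10 stress-inducible genes with a value, with 6 above 0 and 4 below, and -0.04 over the 23 constitutive genes, with 10 above 0 and 13 below. It was -0.28 over the 5 mitochondrial genes, with 2 above 0 and 3 below, and -0.15 over the 8 TRiC genes, all of them below 0. Without verteporfin library 1 the constitutive, mitochondrial and TRiC medians were 0.25, 0.071 and 0.19. The inducible median was -0.11 when HSPA8, HSP90AB1, STIP1, AHSA1, HSPD1 and HSPE1, which HSF1 is also known to drive, were counted in it. Without those genes the constitutive median was 0.021 and the mitochondrial median 0.17. These medians are descriptions, and the difference between classes was not tested. In bulk RNA, fewer cells of a type and less RNA per cell cannot be told apart.

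**Figure D1:**
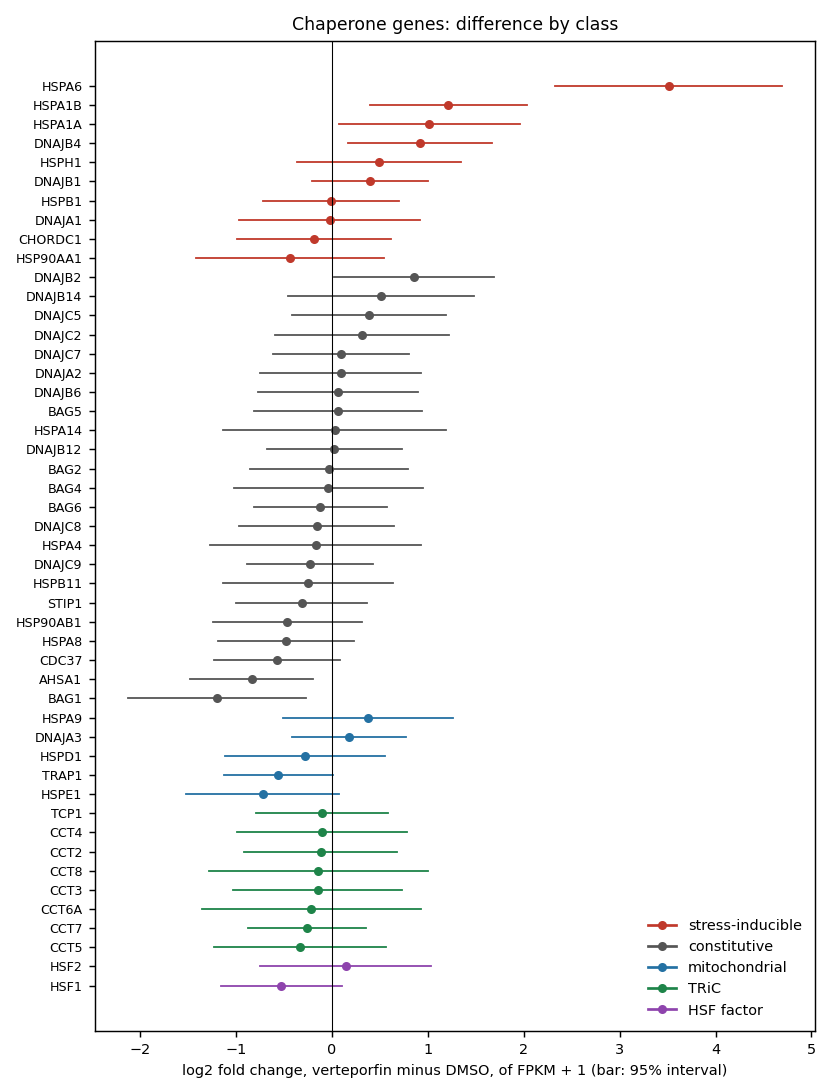
The horizontal axis is the log2 fold change, verteporfin minus DMSO, of FPKM + 1 for the 48 chaperone genes with a value, points are limma estimates, bars are 95% intervals and colours are the classes. The HSPA6 estimate of 3.51 lies farthest from 0, and the stress-inducible class spans -0.44 to 3.51 while the TRiC class spans -0.33 to -0.11.

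The libraries also differed as wholes, beyond the members. The share of transcripts listed at 0 was 11.3%, 5.23% and 7.91% in the verteporfin libraries and 14.0%, 14.5% and 18.7% in the DMSO libraries. Spearman's rho over 12952 genes between the GC content of a gene's transcripts and the gene's deviation from its mean over the 6 libraries was 0.50, -0.74 and -0.09 in the verteporfin libraries and 0.54, -0.29 and 0.26 in the DMSO libraries, so genes of low GC content stood high in verteporfin library 2 and low in the libraries numbered 1. The part of the share at 0 in the results was not tested. The depth of sequencing cannot be read from FPKM. Of 14 marker genes of B-cell precursors 13 had a value, and they summed to 1228 to 1955 FPKM in verteporfin and 1586 to 1944 FPKM in DMSO. Of 18 marker genes of other blood and tissue cells 16 had no value, and the other pair, NKG7 and LYZ, summed to 2.62 to 3.17 FPKM in verteporfin and 2.56 to 3.80 FPKM in DMSO.

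The promoters of 8 members are shown because HSF1 acts through heat shock elements there, and they cover inducible and constitutive genes of the cytosolic HSP70 and HSP90 families, an HSP40 and a cochaperone. The sequences are those of RefSeq on GRCh38.p14, each a stretch of 130 bases from a window of 250 bases before to 50 bases after the annotated start of a gene. The coordinates are chr1:161524410-161524539 for HSPA6, chr6:31815413-31815542 for HSPA1A, chr6:31827608-31827737 for HSPA1B, chr1:78004809-78004938 for DNAJB4 and chr6:44247753-44247882 for HSP90AB1, all on the plus strand. They are chr14:102087045-102087174 for HSP90AA1, chr11:90223050-90223179 for CHORDC1 and chr11:123062137-123062266 for HSPA8, all on the minus strand. Where a gene has several annotated starts, the window with the most matches is shown. The stretch ends at the base before the start, except in HSP90AB1, where it ends 61 bases before it. Capitals mark each match to the letters GAANNTTC or TTCNNGAA, a pair of GAA units, or to GAANNTTCNNGAA or TTCNNGAANNTTC, 3 such units, each of which holds overlapping pairs.
HSPA6: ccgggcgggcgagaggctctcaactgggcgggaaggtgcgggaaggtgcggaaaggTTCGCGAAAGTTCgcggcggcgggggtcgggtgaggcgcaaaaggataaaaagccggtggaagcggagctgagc
HSPA1A: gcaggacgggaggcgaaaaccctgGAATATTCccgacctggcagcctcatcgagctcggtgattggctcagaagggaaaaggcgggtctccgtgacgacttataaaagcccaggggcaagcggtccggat
HSPA1B: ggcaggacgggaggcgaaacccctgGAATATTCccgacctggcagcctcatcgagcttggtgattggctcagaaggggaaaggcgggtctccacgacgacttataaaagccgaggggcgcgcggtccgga
DNAJB4: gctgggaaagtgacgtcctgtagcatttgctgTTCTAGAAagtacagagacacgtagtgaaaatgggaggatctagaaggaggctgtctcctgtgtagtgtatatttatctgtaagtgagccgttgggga
HSP90AA1: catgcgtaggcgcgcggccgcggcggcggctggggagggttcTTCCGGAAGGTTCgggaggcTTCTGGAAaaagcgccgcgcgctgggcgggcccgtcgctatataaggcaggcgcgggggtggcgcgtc
CHORDC1: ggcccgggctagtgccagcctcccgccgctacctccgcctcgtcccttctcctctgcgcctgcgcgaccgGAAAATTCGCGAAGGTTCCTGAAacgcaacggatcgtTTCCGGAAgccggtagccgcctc
HSPA8: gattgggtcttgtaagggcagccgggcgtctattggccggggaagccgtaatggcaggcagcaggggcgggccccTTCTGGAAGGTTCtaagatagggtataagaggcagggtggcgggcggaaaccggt
HSP90AB1: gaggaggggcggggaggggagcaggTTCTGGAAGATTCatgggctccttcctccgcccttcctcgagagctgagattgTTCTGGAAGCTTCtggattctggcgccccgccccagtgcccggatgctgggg

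Pairs of units were common and runs of 3 were rare. The search covered both strands, since each pair reads the same on the other strand and both runs of 3 are each other's reverse complement. Of the 50 members 45 matched an entry in the promoter table. At least 1 pair was found in 20 of them, or 44.4%, and in 16.2% of the 27305 genes in the table. A run of 3 units was found in 8 members, or 17.8%, and in 0.608% of all genes (0.490% of all windows). These members were HSPA6, HSP90AA1, CHORDC1 and DNAJA1 among 11 stress-inducible genes, HSPA8, HSP90AB1 and DNAJB6 among 21 constitutive genes, and HSPD1 among 5 mitochondrial genes. No run of 3 was found among 7 TRiC genes, while 3 of them held a pair. A match is a description of letters in this window, not a bound site.

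The runs of 3 are set beside the values as a description only. Sites outside the window or with other letters are not counted, so this cannot show whether HSF1 sites go with the values. Among the 8 members with a run the median log2 fold change was -0.24, with 2 above 0, and the range was -0.48 to 3.51. Among the 35 matched and tested members without a run it was -0.03, with 16 above 0. HSPA6 has its run at -74, counted back from the start, and HSPA1A and HSPA1B have a pair at -106 and -105 and no run of 3 in this window. The HSPA1A and HSPA1B stretches have 121 of 129 bases in common after a shift of 1 base. CHORDC1, a cochaperone of HSP90, holds 3 overlapping runs and had a log2 fold change of -0.19.

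The heat shock factors come first among the genes. HSF1 (ENSG00000185122), the main factor of the heat shock response, was at 49.96, 32.2 and 28.9 FPKM in verteporfin and 54.0, 53.2 and 50.1 FPKM in DMSO. The groups did not overlap, but verteporfin library 1 lay within 1 FPKM of the lowest DMSO library. Its log2 fold change was -0.53, with a 95% interval of -1.16 to 0.10 and an adjusted p of 0.610 by limma. From protein-coding transcripts alone HSF1 was at 33.3, 16.4 and 12.8 FPKM in verteporfin and 33.7, 23.4 and 38.0 FPKM in DMSO. Those groups overlapped. HSF2 (ENSG00000025156), which can form mixed trimers with HSF1, was at 2.50, 7.90 and 3.72 FPKM in verteporfin and 3.15, 4.13 and 4.15 FPKM in DMSO. Verteporfin library 2 held the highest of these values and library 1 the lowest, and the log2 fold change was 0.14 (-0.75 to 1.03, adjusted p = 0.952). The direction of HSF2 depended on 1 library and on GC content, since the value was -0.24 without verteporfin library 2 and -0.044 after an adjustment of each library for GC content.

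HSPA6 (ENSG00000173110) is an HSP70 gene known to be nearly silent in unstressed cells, and it had the largest log2 fold change of the 48 members. It was at 11.9, 6.15 and 36.3 FPKM in verteporfin and 0.186, 0.431 and 0.374 FPKM in DMSO. Every verteporfin library lay far above every DMSO library, and the verteporfin libraries also lay far from each other. The means were 18.1 ± 16.0 FPKM in verteporfin and 0.331 ± 0.128 FPKM in DMSO (SD, n = 3 each), a ratio of 54.9. Every listed transcript reaches 0.5 FPKM in its higher group, so HSPA6 was listed only through verteporfin. A gene as low in both groups would have had no entry. The log2 fold change was 3.51 with a standard error of 0.53 and a 95% interval of 2.32 to 4.70, and limma gave an adjusted p of 0.0811. Over the settings run it ranged from 2.86 without verteporfin library 3 to 5.43 with a pseudocount of 0.01. With groups this far apart, no left-out library or pseudocount could turn its direction, so a kept direction is no check. With single libraries left out, the adjusted p was 0.0205 without verteporfin library 2 (log2 fold change 4.05) and 0.0789 without verteporfin library 1. It was 0.189 without verteporfin library 3, and 0.210, 0.222 and 0.320 without DMSO library 1, 2 or 3. With GC adjustment it was 0.0179 (3.62).

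HSPA1A (ENSG00000204389) and HSPA1B (ENSG00000204388) encode the main stress-inducible HSP70 of the cytosol and are near-identical copies, so the split of reads between them is uncertain. HSPA1A was at 47.1, 18.2 and 65.4 FPKM in verteporfin and 16.6, 17.3 and 22.2 FPKM in DMSO. Libraries 1 and 3 of verteporfin stood above all DMSO libraries, and library 2 lay within the DMSO range. HSPA1B was at 73.7, 35.6 and 89.7 FPKM in verteporfin and 21.4, 24.5 and 33.8 FPKM in DMSO, and its groups did not overlap. The log2 fold changes were 1.01 for HSPA1A (0.07 to 1.96, adjusted p = 0.536 by limma) and 1.21 for HSPA1B (0.40 to 2.03, adjusted p = 0.418). Summed to 1 value, the log2 fold change of the pair was 1.15 (limma, adjusted p = 0.443).

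The other stress-inducible genes include the DNAJ partners. DNAJB4 (ENSG00000162616), an HSP40 of the cytosol, was at 10.8, 14.3 and 16.4 FPKM in verteporfin and 7.42, 4.62 and 8.79 FPKM in DMSO. The groups did not overlap, and the log2 fold change was 0.92 (0.16 to 1.67, adjusted p = 0.484 by limma). Most of this sum was not coding sequence, since transcripts annotated as protein coding held 22.6% of the gene's FPKM in verteporfin and 12.9% in DMSO, and with those alone the groups overlapped. The coding transcripts averaged 3.12 ± 1.79 FPKM in verteporfin and 0.896 ± 0.478 FPKM in DMSO (SD, n = 3 each), and their log2 fold change was 1.04 (limma, adjusted p = 0.571). DNAJB1 (ENSG00000132002), the HSP40 that is induced with HSP70 in the heat shock response, was at 82.0, 60.4 and 94.1 FPKM in verteporfin and 51.2, 63.1 and 62.8 FPKM in DMSO. Verteporfin library 2 lay within the DMSO range and the other 2 above it, with a log2 fold change of 0.39 (-0.21 to 1.00, adjusted p = 0.709).

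The remaining inducible genes had no common direction. HSPH1, the HSP110 that exchanges the nucleotide of HSP70, was at 11.98, 28.7 and 32.6 FPKM in verteporfin and 12.9, 15.6 and 19.3 FPKM in DMSO, and its log2 fold change was 0.49. HSPB1, the small heat shock protein HSP27, was at 407, 227 and 445 FPKM in verteporfin and 408, 339 and 308 FPKM in DMSO, with a log2 fold change of -0.02. The groups overlapped in both. DNAJA1, an HSP40 that serves HSC70, was at 28.6, 103 and 60.5 FPKM in verteporfin and 45.0, 74.9 and 56.2 FPKM in DMSO, with a log2 fold change of -0.03. HSP90AA1 (ENSG00000080824), the inducible HSP90, was at 127, 402 and 319 FPKM in verteporfin and 242, 507 and 331 FPKM in DMSO. The groups overlapped, with the lowest value in verteporfin library 1 and the highest in DMSO library 2, and the log2 fold change was -0.44 (-1.41 to 0.54, adjusted p = 0.813 by limma). Without verteporfin library 1 it was 0.059.

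**Figure D2:**
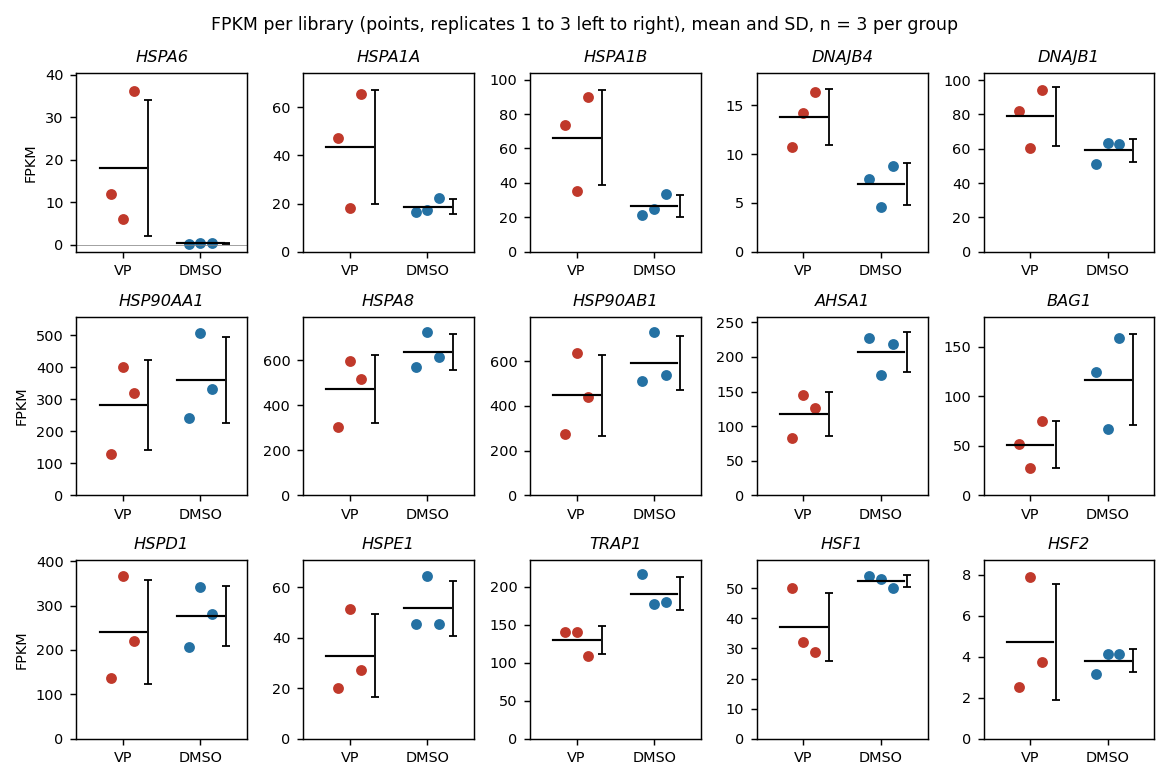
Each panel is 1 gene, the vertical axis is FPKM, points are libraries with replicates 1 to 3 from left to right, and the line and bar are the mean and SD of 3 verteporfin (VP) and 3 DMSO libraries. HSPA6 lies at 6.15 to 36.3 FPKM in verteporfin and below 0.5 FPKM in DMSO, while the HSP90AA1, HSPA8, HSP90AB1 and HSPD1 groups overlap.

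The constitutive class is led by its most abundant genes. HSPA8 (ENSG00000109971), the HSP70 that all cells make (HSC70), was at 305, 594 and 517 FPKM in verteporfin and 571, 727 and 613 FPKM in DMSO. HSP90AB1 (ENSG00000096384), the constitutive HSP90, was at 273, 635 and 438 FPKM in verteporfin and 510, 731 and 538 FPKM in DMSO. In both genes verteporfin libraries 1 and 3 lay below all DMSO libraries and library 2 lay among them. The log2 fold changes were -0.48 for HSPA8 (-1.19 to 0.23, adjusted p = 0.703 by limma) and -0.47 for HSP90AB1 (-1.24 to 0.31, adjusted p = 0.732). From protein-coding transcripts alone HSPA8 was at 283, 519 and 483 FPKM in verteporfin and 533, 681 and 573 FPKM in DMSO. Those groups did not overlap, and the log2 fold change was -0.51 (limma, adjusted p = 0.687). A ratio of FPKM sets inducible against constitutive genes within each library. HSPA1A and HSPA1B together stood at 39.6%, 9.05% and 30.0% of HSPA8 in verteporfin and 6.65%, 5.76% and 9.12% in DMSO. HSPA6 stood at 3.91%, 1.03% and 7.02% of HSPA8 in verteporfin and 0.0326%, 0.0593% and 0.0611% in DMSO. The HSPA6 ratio did not overlap between the groups, while in the HSPA1A and HSPA1B ratio verteporfin library 2 lay just under DMSO library 3. The ratio of HSP90AA1 to HSP90AB1 did not separate the groups, at 46.7%, 63.3% and 72.7% in verteporfin and 47.4%, 69.3% and 61.5% in DMSO.

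Among the cochaperones, 3 constitutive genes had an unadjusted p under 0.05, and DNAJB2 and BAG1 are described because of it, after their values were seen. DNAJB2 (ENSG00000135924), an HSP40 that directs clients of HSP70 to the proteasome, was at 19.2, 12.4 and 33.9 FPKM in verteporfin and 9.16, 10.8 and 12.4 FPKM in DMSO. The log2 fold change was 0.85 (0.02 to 1.69, adjusted p = 0.551 by limma), with verteporfin library 2 at the level of DMSO library 3. From protein-coding transcripts alone it was 0.47. BAG1 (ENSG00000107262), a nucleotide exchange factor of HSP70, was at 51.4, 27.3 and 74.6 FPKM in verteporfin and 124, 67.2 and 159 FPKM in DMSO. Verteporfin libraries 1 and 2 lay below all DMSO libraries, while library 3 lay above DMSO library 2, and the log2 fold change was -1.20 (-2.13 to -0.28, adjusted p = 0.453). BAG1-208, a transcript of 485 bases, held 81.9% of this FPKM, at 41.8, 11.4 and 61.9 in verteporfin and 105, 47.2 and 145 in DMSO. The longer coding BAG1-210 was at 5.51, 10.1 and 7.05 FPKM in verteporfin and 11.4, 11.4 and 9.16 FPKM in DMSO. Its groups overlapped, with a log2 fold change of -0.47. The BAG1 transcripts had a GC content of 66.1%, the highest of the members.

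AHSA1 (ENSG00000100591), which stimulates the ATPase of HSP90, was at 82.8, 144 and 126 FPKM in verteporfin and 228, 174 and 219 FPKM in DMSO. The groups did not overlap, and the log2 fold change was -0.84 (-1.48 to -0.19, adjusted p = 0.453 by limma). Most of the difference lay in 1 transcript. AHSA1-204 (ENST00000554156), annotated as a retained intron, was at 0.000896, 0.0372 and 0.00163 FPKM in verteporfin and 109, 26.9 and 105 FPKM in DMSO. Its log2 fold change was -6.08 with an adjusted p of 0.0340 by limma over 55148 transcripts. It was the 1 transcript called among 337 tested of the members, beside a background of 0.0308% of transcripts, and it fell in verteporfin. AHSA1-204 lay under 0.5 FPKM in verteporfin, so it was listed only through DMSO. From protein-coding transcripts alone AHSA1 was at 72.3, 127 and 108 FPKM in verteporfin and 103, 118 and 92.2 FPKM in DMSO. These groups overlap, and the log2 fold change was -0.06 with an adjusted p of 0.975.

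The same view of single transcripts showed shifts inside other genes that did not pass the test. TRAP1-212 was at 13.4, 28.3 and 7.73 FPKM in verteporfin and 87.1, 62.5 and 75.6 FPKM in DMSO, a log2 difference of -2.29 (limma, adjusted p = 0.387). TRAP1-202 had the other order, at 74.1, 65.0 and 61.1 FPKM in verteporfin and 36.8, 50.2 and 48.4 FPKM in DMSO. Both are annotated as protein coding, and in neither did the groups overlap. HSP90AB1-203, which held 84.4% of that gene's FPKM, was at 89.6, 381 and 422 FPKM in verteporfin and 498, 719 and 527 FPKM in DMSO. HSP90AB1-202 was at 74.8, 77.0 and 11.4 FPKM in verteporfin and 3.14, 4.54 and 4.57 FPKM in DMSO (log2 fold change 3.06, adjusted p = 0.473). HSP90AA1-202 moved between libraries of 1 group as much as between groups, at 1.07, 82.1 and 103 FPKM in verteporfin and 110, 0.588 and 126 FPKM in DMSO. FPKM of single transcripts depend on how the authors' software shared reads between transcripts of nearly the same sequence.

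The other 18 constitutive genes with a value had groups that overlap. They include CDC37, which hands kinases to HSP90, with 92.4, 64.5 and 83.8 FPKM in verteporfin and 154, 86.8 and 126 FPKM in DMSO and a log2 fold change of -0.58 (limma, adjusted p = 0.593). STIP1, the adaptor between HSP70 and HSP90, had -0.32, the HSP110 gene HSPA4 had -0.17, and BAG6, which guards membrane proteins before insertion, had -0.12. DNAJC5, an HSP40 of vesicles, had 0.39, DNAJB14, an HSP40 of the endoplasmic reticulum membrane, had 0.51, and DNAJC2, an HSP40 of the ribosome, had 0.32. From protein-coding transcripts alone the sign turned for DNAJC2 (-0.22) and for BAG6 (0.0067). Coding transcripts held 54.3% of the DNAJC2 FPKM in verteporfin and 84.7% in DMSO. The other 11, among them BAG2, BAG4, BAG5 and further DNAJ genes, lay between -0.25 (HSPB11) and 0.09 (DNAJC7).

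The mitochondrial genes were followed by role. HSPD1 (ENSG00000144381), which encodes HSP60, was at 136, 367 and 220 FPKM in verteporfin and 207, 341 and 280 FPKM in DMSO. The verteporfin libraries held both the highest and the lowest value, and the log2 fold change was -0.28 (-1.11 to 0.55, adjusted p = 0.868 by limma), or 0.071 without verteporfin library 1. HSPE1 (ENSG00000115541), which encodes its lid HSP10, was at 20.0, 51.5 and 27.3 FPKM in verteporfin and 45.5, 64.2 and 45.2 FPKM in DMSO. Verteporfin libraries 1 and 3 lay below all DMSO libraries and library 2 among them, with a log2 fold change of -0.72 (-1.52 to 0.07, adjusted p = 0.589). The starts of these 2 genes lie 539 bases apart in RefSeq. The ratio of HSPE1 to HSPD1 was 14.7%, 14.0% and 12.4% in verteporfin and 21.9%, 18.8% and 16.1% in DMSO. Summed over all transcripts it was thus lower in every verteporfin library than in any DMSO library. From protein-coding transcripts alone HSPE1 and HSPD1 were at 42.0 and 330 FPKM in verteporfin library 2. In DMSO library 3 they were at 32.5 and 265 FPKM, a lower ratio, so on coding transcripts the groups overlapped.

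TRAP1 (ENSG00000126602), the HSP90 of mitochondria, was at 140, 140 and 108 FPKM in verteporfin and 216, 177 and 179 FPKM in DMSO. The groups did not overlap, also from protein-coding transcripts alone, and the log2 fold change was -0.56 (-1.13 to 0.01, adjusted p = 0.563 by limma). HSPA9, the HSP70 that pulls proteins into the matrix, was at 49.3, 150 and 115 FPKM in verteporfin and 56.7, 91.0 and 75.4 FPKM in DMSO. Its groups overlapped, with a log2 fold change of 0.37. DNAJA3, its HSP40 partner, had 0.17.

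The TRiC genes ranked the libraries alike, and the ranks of the verteporfin and DMSO libraries were mixed. The 8 genes summed to 497, 1335 and 757 FPKM in verteporfin and 749, 1175 and 826 FPKM in DMSO. All 8 had their lowest value of the 6 libraries in verteporfin library 1, and 6 had their highest in verteporfin library 2. Within DMSO all 8 were highest in library 2. CCT8 was at 30.1, 152 and 72.9 FPKM in verteporfin and 53.3, 115 and 74.2 FPKM in DMSO. Most of its verteporfin library 2 value was 1 transcript, CCT8-212, at 0.397, 128 and 0 FPKM in verteporfin and 3.98, 0 and 0 FPKM in DMSO. From protein-coding transcripts alone CCT8 was at 20.9, 139 and 28.6 FPKM in verteporfin and 41.1, 50.4 and 55.8 FPKM in DMSO, where DMSO library 2 was not the highest. CCT6A was at 32.1, 168 and 92.9 FPKM in verteporfin and 63.6, 114 and 109 FPKM in DMSO. TCP1, after which the complex is named, was at 80.5, 145 and 101 FPKM in verteporfin and 98.4, 153 and 97.9 FPKM in DMSO. The spread between libraries of 1 group thus exceeded the difference of the group means in these subunits. Log2 fold changes were narrow, from -0.33 for CCT5 to -0.11 for TCP1, and all groups overlapped. That all 8 were below 0 depended on verteporfin library 1, without which 7 were above 0 and the median was 0.19, on DMSO library 2, without which 5 were above 0, and on scaling, since 3 were above 0 after quantile normalization.

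**Figure D3:**
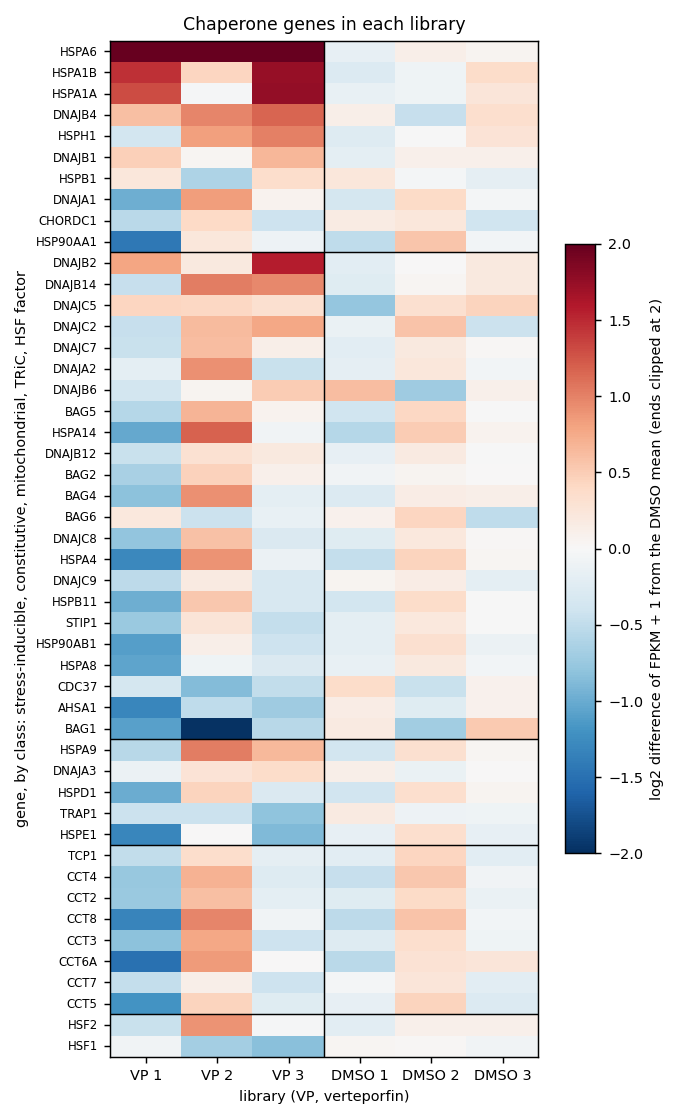
Each line is a chaperone gene, sorted by class and by fold change within it, each column is a library, and the colour is the log2 difference of FPKM + 1 from the DMSO mean, with the ends clipped at 2. The TRiC genes are blue in verteporfin (VP) library 1 and red in library 2, while HSPA6, HSPA1B and DNAJB4 are red in all 3 verteporfin libraries.

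The same order of libraries held for many members. Verteporfin library 1 had the lowest value of the 6 libraries for 32 of 48 members and verteporfin library 2 the highest for 24. The members together made up 0.642%, 1.28% and 0.980% of all FPKM in verteporfin and 0.991%, 1.33% and 1.08% in DMSO. Set against the DMSO mean, the TRiC class median on the log2 scale was -0.79, 0.65 and -0.22 in the verteporfin libraries and -0.25, 0.40 and -0.11 in the DMSO libraries. The stress-inducible class median was 0.35, 0.41 and 0.84 in the verteporfin libraries and -0.18, 0.04 and 0.07 in the DMSO libraries. It was thus higher in each verteporfin library than in any DMSO library, while the TRiC, constitutive and mitochondrial medians overlapped. The summed FPKM of the stress-inducible genes did overlap, at 808, 910 and 1167 in verteporfin and 817, 1059 and 850 in DMSO.

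**Figure D4:**
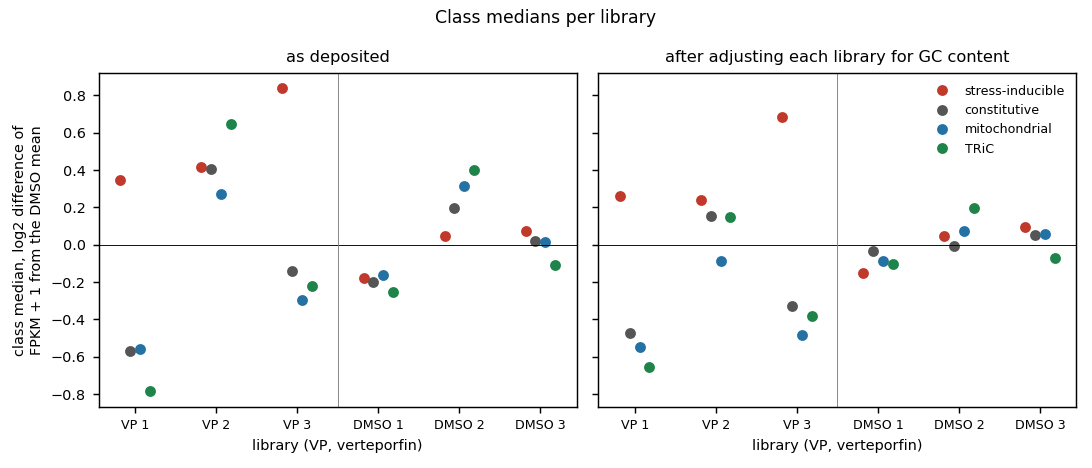
The vertical axis is the median over a class of the log2 difference of FPKM + 1 from the DMSO mean, the horizontal axis is the library (VP, verteporfin), and the right panel shows the values after each library was adjusted for GC content. The stress-inducible medians are 0.35, 0.41 and 0.84 in verteporfin as deposited and stay above those in DMSO after adjustment, and the TRiC medians spread less after it.

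GC content went with these patterns. The median GC content was 44.6% over the transcripts of the TRiC genes, against 50.6% over all genes tested, and it was 58.4% in HSPA6, 59.5% in HSPA1A and 58.7% in HSPA1B. Over the 48 members, rho between GC content and the deviation was 0.59, -0.77 and 0.03 in the verteporfin libraries and 0.30, -0.31 and 0.03 in the DMSO libraries, values that share the same genes and the same libraries. After each library's deviations were fitted against GC content and the fit subtracted, the TRiC median was -0.66, 0.15 and -0.38 in verteporfin and -0.10, 0.20 and -0.07 in DMSO. The stress-inducible median was 0.26, 0.24 and 0.68 in verteporfin and -0.15, 0.05 and 0.10 in DMSO. The adjustment was chosen after the data were seen.

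**Figure D5:**
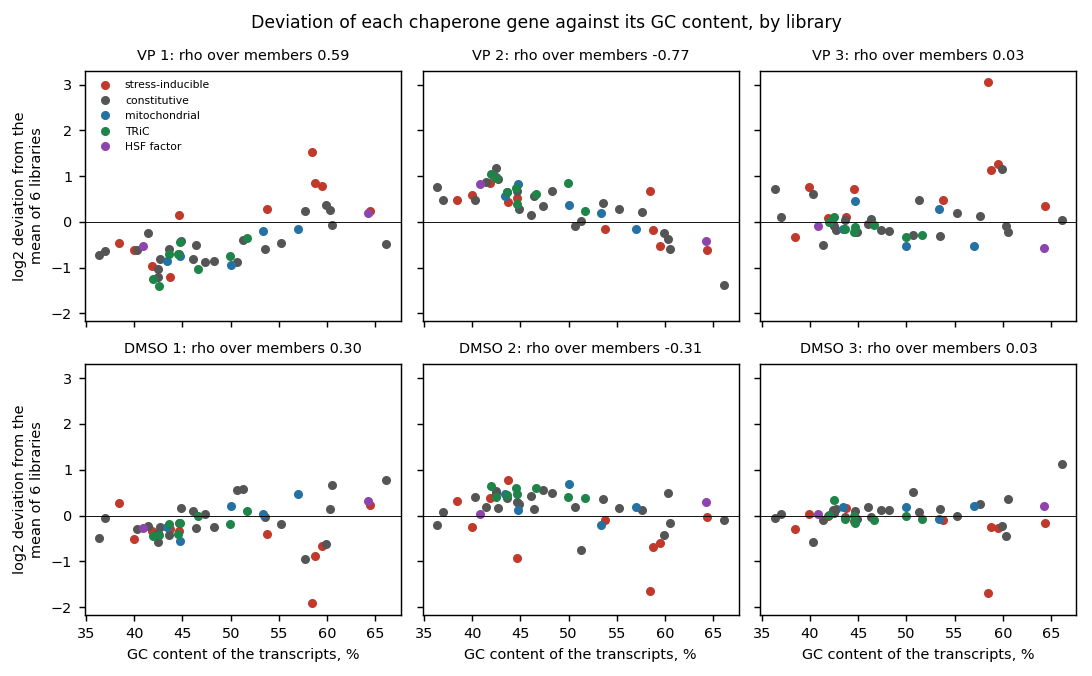
Each panel is a library (VP, verteporfin), the horizontal axis is the GC content of a gene's transcripts in percent, the vertical axis is the log2 deviation of FPKM + 1 from the gene's mean over the 6 libraries, and points are the 48 chaperone genes coloured by class. The points climb with GC content in VP 1 (rho 0.59) and descend in VP 2 (rho -0.77).

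With GC adjustment more members separated, and so did more of all genes. HSPA6 rose under it, the 1 member with an adjusted p under 0.05 by limma (log2 fold change 3.62, adjusted p = 0.0179), beside 0.154% of all genes. The groups did not overlap for 6 members with higher values (HSPA1A, HSPA1B, HSPA6, DNAJB1, DNAJB4 and DNAJB2), or 12.5% beside 9.21% of all genes. They did not overlap for 8 members with lower values (HSP90AA1, HSPA8, HSP90AB1, DNAJC9, BAG1, AHSA1, HSPE1 and TRAP1), or 16.7% beside 9.82% of all genes. Some of these gaps were narrow on the adjusted log2 scale. The nearest verteporfin and DMSO values were 8.212 and 8.221 for HSP90AA1 and 5.601 and 5.620 for HSPE1. For TRAP1 they were 7.455 and 7.479, and for DNAJB1, on the higher side, 6.059 and 6.044. At an unadjusted p under 0.05 by limma there were 9 of 48 members, 5 higher and 4 lower, beside 13.6% of all genes. Without the adjustment these were 7 members and 8.84% of all genes. HSF1 overlapped between the groups after the adjustment, with a log2 fold change of -0.26.

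Other genes of protein folding gave the same count of calls, 0 in each of 3 lists. Of 42 other cytosolic chaperones and cochaperones 35 were tested, with 21 above 0, 14 below and a median of 0.10. Their groups did not overlap for 3 with higher values and 4 with lower values, 20.0% of the list beside 14.2% of all genes. SQSTM1, the autophagy receptor p62 that collects ubiquitin-tagged proteins, was at 60.2, 52.7 and 259 FPKM in verteporfin and 42.5, 27.5 and 38.7 FPKM in DMSO, with a log2 fold change of 1.37 (limma, adjusted p = 0.491). DNAJC25 had -1.44 and DNAJC27 had 0.89, both at levels under 7 FPKM.

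All 14 genes of prefoldin, which hands actin and tubulin to TRiC, and of tubulin folding were tested, with 6 above 0, 8 below and a median of -0.04, and the groups overlapped in each. Of 16 other mitochondrial chaperones and proteases 15 were tested, with 5 above 0, 10 below and a median of -0.15. The groups did not overlap for 2 of them, both with lower values, or 13.3% beside 14.2% of all genes, a share near the background. PAM16, a subunit of the motor that imports proteins with HSPA9, was at 12.8, 14.4 and 13.4 FPKM in verteporfin and 22.3, 29.6 and 23.6 FPKM in DMSO, with a log2 fold change of -0.84 (limma, adjusted p = 0.436). CLPB, a disaggregase of mitochondria, was at 9.57, 14.5 and 13.3 FPKM in verteporfin and 18.6, 22.3 and 24.8 FPKM in DMSO, with a log2 fold change of -0.78 (limma, adjusted p = 0.490).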

How the data were processed

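RNA of 3 verteporfin and 3 DMSO libraries of NALM6 cells was measured, prepared with a stranded kit that marks the second strand, per the labels' protocols. The authors deposited FPKM per Ensembl transcript, per the file headers, and the role of each program is not given in the sources used here. The submitters' processing notes list the programs edgeR, STAR, StringTie 1.3.3, HISAT2 2.1.0, cutadapt and FastQC with the genome build hg18, in no stated role or order, and no coordinates of the table were used. In each transcript listed, the larger of the group means is 0.5 FPKM or more, so a gene without an entry may still be expressed below that. Read depth is unknown, so no counting interval could be given and the number of libraries sets the precision.

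Transcripts (62250) were matched by identifier to GENCODE 29, with 275 (0.442%) unmatched and left out, and FPKM were summed per gene. HSPA14 has 2 gene identifiers in GENCODE 29, of which ENSG00000187522 was kept. Genes averaging 0.5 FPKM or more entered the test, which was run on log2 of FPKM + 1, computed from the deposited FPKM, with limma 3.58.1 in R 4.3.3 (eBayes with a variance trend, 2-sided, Benjamini-Hochberg over 12952 genes, threshold 0.05). The treatment was the 1 term. Tables and figures were made with matplotlib 3.10.9, scipy 1.17.1, numpy 2.4.6 and pandas 2.3.3 in Python 3.11.15. GC content is that of the GENCODE 29 transcripts, averaged per gene by FPKM, and the adjustment fits a natural spline with 4 degrees of freedom. A further 4765 entries of whole numbers were left out of the sums.

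The members and lists were chosen with earlier results of these data known, so no p is given over a list. Full values are given for members that passed the test, for members whose groups do not overlap with an absolute log2 fold change of at least 0.5, for 12 set genes (HSF1, HSF2, HSPA1A, HSPA1B, HSPA6, HSPA8, HSP90AA1, HSP90AB1, DNAJB1, BAG3, HSPD1 and HSPE1), and for up to 4 genes per further list. A gene of the further lists that meets this rule is not reported here. DNAJB2, BAG1 and the other genes and transcripts given with values were chosen after these were seen. Alternatives were other minimums, pseudocounts, scalings and variance models, library weights, a replicate block, single transcripts, summed paralogs, a wider inducible class and leaving out each library. The GC adjustment and the use of protein-coding transcripts alone were added after the data were seen.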

Additional observations from a re-analysis of the deposited data

Results flagged for a closer look

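The table holds, after its FPKM, entries with whole numbers under repeated transcript identifiers. Their unit is not stated, they are not FPKM, and no result above uses them. They were singled out because they hold a signal outside the main measurement. Items were flagged only where the verteporfin sum was at least 10 and above the DMSO sum, so their direction follows from the choice. The sum over all such entries is not given here, so the values cannot be called particular to the chaperones. Over the 14 members with such entries they were 6, 74 and 33 in the verteporfin libraries and 8, 15 and 9 in the DMSO libraries, a sum of 113 against 32. CCT2 had 3, 44 and 6 in verteporfin and 0, 0 and 3 in DMSO, a sum of 53 against 3. DNAJC2 had 1, 8 and 9 in verteporfin and 0, 0 and 1 in DMSO, a sum of 18 against 1. For the members together verteporfin library 1 lay below all DMSO libraries, and most of the sum came from verteporfin library 2. The other members held sums of 0 to 7. No test was made, since the unit is unknown.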

How the results depend on the processing

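The call of 0 members held with quantile normalization, equal medians, pseudocounts of 0.1 and 0.01, a minimum of 5 FPKM or none, rescaling without the 3 most abundant transcripts, no variance trend, summed HSPA1A and HSPA1B and protein-coding transcripts alone. Over all genes the count was 0 in place of 2 with either smaller pseudocount, with equal medians, with rescaling, with no trend and with protein-coding transcripts alone, where the genes with an unadjusted p under 0.05 by limma numbered 1126, 1083, 1172, 1154, 1140 and 896. Without 1 library each, the count of genes ranged from 0 to 13 and that of members from 0 to 1. It was 13 without verteporfin library 1 and 12 without verteporfin library 2, where HSPA6 passed, 1 without DMSO library 3, and 0 without DMSO library 1, DMSO library 2 or verteporfin library 3. Library weights gave 1081 of 12952 genes, 693 higher and 388 lower. They gave 8 of 48 members (HSPA6, HSPA1A, HSPA1B, DNAJB4 and DNAJB2 higher, AHSA1, TRAP1 and HSF1 lower). They set verteporfin library 3 at 3.88 and verteporfin libraries 1 and 2 at 0.416 and 0.363, so this count rests mostly on 1 verteporfin library. GC adjustment gave 20 genes and 1 member, and with weights 79 genes and 2 members (HSPA6 and HSPA1B). Single transcripts gave 17 calls, 1 of a member. The cause of these shifts was not tested.

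The replicate block gave 84 of 12952 genes, 44 higher and 40 lower, and 2 of 48 members. These were HSPA6 (3.51, adjusted p = 0.0174 by limma) and BAG1 (-1.20, adjusted p = 0.0347). With GC adjustment the block gave 31 genes and 1 member. The labels do not say that libraries of the same number belong together, and whether they are paired was not settled. Deviations of same-numbered libraries correlated at 0.389, 0.509 and 0.0985. Verteporfin libraries 1 and 2 correlated best with the DMSO library of their number, and verteporfin library 3 correlated best with DMSO library 1 (0.138).

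The class medians ranged over single libraries left out from 0.24 to 0.66 (stress-inducible), -0.43 to 0.25 (constitutive), -0.62 to 0.071 (mitochondrial) and -0.56 to 0.19 (TRiC), with the lowest constitutive value without verteporfin library 2. The inducible median was -0.11 when HSPA8, HSP90AB1, STIP1, AHSA1, HSPD1 and HSPE1, also known as HSF1 targets, were counted in it. The constitutive and mitochondrial medians left by that split were 0.021 and 0.17. Signs turned for HSP90AA1 (0.059) and HSPD1 (0.071) without verteporfin library 1, and for HSF2 without verteporfin library 2 (-0.24), with GC adjustment with or without the block (-0.044) and with GC adjustment and weights (-0.14). With protein-coding transcripts alone they turned for DNAJC2 (-0.22), DNAJB6 (-0.21), HSPA14 (-0.0064), BAG6 (0.0067) and CHORDC1 (8.26e-05). Ranges over single libraries left out were -0.77 to 0.059 for HSP90AA1, -0.64 to 0.071 for HSPD1 and -0.24 to 0.44 for HSF2. Depth is unknown, and low genes such as HSPA6 in DMSO depend most on the pseudocount.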
